A study of Homo sapiens with 24 samples.

Results

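Fatty acid oxidation was followed through 9 genes in MDA-MB-231, an established triple-negative human breast cancer cell line. The genes were chosen by name, by matching the Ensembl identifiers of the deposited tables to CPT1A, CPT2, SLC25A20, SLC27A4, ACADVL, HADHA, PDK4, ANGPTL4 and PLIN2. All 9 were found among the 37247 gene identifiers and all 9 passed the filter on low counts, with 14986 genes tested in all. The names were picked with earlier results of these libraries known and with CPT1A in the lead, so the levels of CPT1A are given as a description without a p-value, and the calls on the other 8 are no independent evidence of a pattern. The rule has no threshold, so no gene sits just inside or outside it.

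The study compared 4 MDA-MB-231 lines: a control line and lines overexpressing WT, dSAP or dSRF MRTF-A under doxycycline induction. MRTF-A (gene MRTFA) binds actin and works with the transcription factor SRF, and the labels do not spell out what dSAP and dSRF stand for. Cells of each line grew either flat in plates (2D) or, in 3D, over matrigel (a gel of basement membrane proteins), which gave 8 groups of 3 libraries and 24 libraries in all. Every library, those of the control line included, is labelled as having received doxycycline at 1 ug/ml for 72 h, and all cultures had fetal bovine serum in the medium. Group names below give the culture and then the line, as in 3D dSRF. The labels do not say whether a line is a single clone or a pool, and they do not say whether replicates were separate cultures, so the p-values measure the spread between these libraries, which may be technical.

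Total counts ran from 13968773 to 23023300 per library. Lines follow the sample titles, with which the genotype field disagreed in 16 libraries. The count of the induced gene checks only control against overexpression, as it does not show which form of MRTF-A was expressed. MRTFA stood at 28.8 to 39.1 CPM (counts scaled to a fixed library total and by TMM factors) in the control libraries. It was at 3170 CPM or more in every overexpressing library but one. The exception is the library labelled 3D dSRF 1, at 663.7 CPM against 4840 and 4857 CPM in the other 3D dSRF libraries. Over all tested genes it correlated less with the mean of those (r = 0.952) than with the mean of the 2D dSRF libraries (0.971), so results that rest on it are given with and without it. The cell line markers VIM and CD44 were at 657.5 CPM or more in every library, and the estrogen and progesterone receptor genes ESR1 and PGR did not pass 0.112 CPM. Defining markers of fat and liver cells were at or near 0, with ADIPOQ, LEP, CIDEC, ALB and TTR at 0.0699 CPM or less in every library. Of the leukocyte and endothelial markers, PTPRC, CD3E, PECAM1 and CDH5 stayed at or below 0.583 CPM, while CD14 ran from 2.66 to 13.9 CPM and VWF reached 36.04 CPM at its highest. In bulk RNA, fewer cells in a state and less RNA per cell cannot be told apart.

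Long-chain fatty acids enter a cell and are activated to acyl-CoA with the help of fatty acid transport proteins such as SLC27A4. Their entry into mitochondria runs over the carnitine shuttle: CPT1A, on the outer membrane, makes acyl-carnitine in the rate-limiting step that malonyl-CoA inhibits, SLC25A20 carries acyl-carnitine across the inner membrane, and CPT2 turns it back into acyl-CoA. ACADVL carries out the first oxidation step on very long chains, and HADHA is the alpha subunit of the trifunctional protein that carries out the later steps. PDK4, ANGPTL4 and PLIN2 are known targets of the PPAR receptors, which fatty acids activate: PDK4 inhibits pyruvate dehydrogenase and so spares glucose, ANGPTL4 is a secreted inhibitor of lipoprotein lipase, and PLIN2 coats lipid droplets.

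The 250 bases before the RefSeq start site were read for each member from RefSeq on GRCh38.p14. A search of the window from 250 bases before to 50 bases after the start covered both strands for AGGTCA (nuclear receptor half-site), the DR1 element bound by PPAR and RXR (AGGTCA in tandem with 1 base between, which contains the half-site), GTAAACA (FOXO), ACGTG (core of the hypoxia element), GGAATG (TEAD) and the CArG box that SRF binds. Neither AGGTCA, DR1, GTAAACA nor GGAATG was found in these windows of the 9 members, where ACADVL has 2 starts, and these letters occur in 13.8%, 0.0228%, 3.42% and 14.0% of 35116 RefSeq promoter windows of that length. The CPT2 window holds a CArG box 204 bases before the start, which 1.29% of all windows hold, and those of PLIN2, ANGPTL4 and ACADVL hold ACGTG, which 21.4% of all windows hold. A match is a description of the letters, not evidence of binding. Windows are printed for 3 members because CPT1A had the largest fold change among the members in 2D dSRF, CPT2 is the other transferase of the shuttle and was lower there, and PLIN2 holds the most ACGTG matches. Capitals mark the CArG box in CPT2 and ACGTG on either strand in PLIN2, where a palindrome holds 2 overlapping matches, and CPT1A has no match (chr11:68844278-68844527, minus strand; chr1:53196574-53196823, plus strand; chr9:19127493-19127742, minus strand).
CPT1A: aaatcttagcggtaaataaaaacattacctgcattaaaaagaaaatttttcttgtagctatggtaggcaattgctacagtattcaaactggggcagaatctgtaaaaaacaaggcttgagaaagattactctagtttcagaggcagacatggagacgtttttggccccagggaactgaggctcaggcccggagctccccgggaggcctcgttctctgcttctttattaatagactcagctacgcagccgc
CPT2: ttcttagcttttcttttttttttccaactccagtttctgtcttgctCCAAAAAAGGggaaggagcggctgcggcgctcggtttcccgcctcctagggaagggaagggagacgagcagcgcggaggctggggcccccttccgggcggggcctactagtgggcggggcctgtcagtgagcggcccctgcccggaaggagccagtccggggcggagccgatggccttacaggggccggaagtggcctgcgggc
PLIN2: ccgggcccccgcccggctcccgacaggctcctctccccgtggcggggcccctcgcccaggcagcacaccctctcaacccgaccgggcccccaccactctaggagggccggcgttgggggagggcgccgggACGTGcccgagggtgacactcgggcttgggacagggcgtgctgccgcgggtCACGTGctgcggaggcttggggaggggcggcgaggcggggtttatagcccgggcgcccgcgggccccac

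SLC27A4 (ENSG00000167114, chr9:128340646-128361470, plus strand, GENCODE 29 on GRCh38), the uptake and activation gene, was higher in each MRTF-A line than in the control of the same culture. In 2D, the control libraries had 24.5, 23.8 and 23.9 CPM, WT 47.7, 46.3 and 46.4 CPM, dSAP 39.0, 39.0 and 39.8 CPM and dSRF 97.1, 95.4 and 94.1 CPM. In 3D, the control libraries had 39.8, 39.6 and 39.0 CPM, WT 53.6, 53.4 and 52.6 CPM, dSAP 48.3, 47.2 and 45.9 CPM and dSRF 103, 98.6 and 103 CPM. Within either culture the lines did not overlap, in the order control, dSAP, WT, dSRF. By edgeR's quasi-likelihood test, the log2 fold change against control in 2D was 0.96 ± 0.037 (SE; adjusted p = 9.851e-14) for WT, 0.70 ± 0.037 (SE; adjusted p = 2.651e-11) for dSAP and 1.99 ± 0.037 (SE; adjusted p = 7.994e-19) for dSRF. In 3D it was 0.43 ± 0.036 (SE; adjusted p = 9.475e-09), 0.26 ± 0.036 (SE; adjusted p = 1.86e-05) and 1.36 ± 0.036 (SE; adjusted p = 1.639e-16) in the same order, and 1.35 ± 0.041 (SE) for dSRF without library 3D dSRF 1. The pairs 2D dSAP and 3D control, and 2D WT and 3D dSAP, were the neighbours in the order of the 8 groups whose libraries overlapped.

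CPT1A (ENSG00000110090, chr11:68754620-68844410, minus strand), the gate of the carnitine shuttle, had the widest range of the shuttle genes. The 2D libraries had 25.4, 25.4 and 26.8 CPM in control, 45.7, 44.7 and 43.4 CPM in WT, 34.3, 39.2 and 32.6 CPM in dSAP and 202, 205 and 195 CPM in dSRF. The 3D libraries had 110.1, 115 and 104 CPM in control, 103, 100 and 99.7 CPM in WT, 93.6, 96.4 and 88.0 CPM in dSAP and 252, 225 and 228 CPM in dSRF. The 8 groups fell into 3 tiers, with the 3 other 2D groups low, the 3 other 3D groups between, and dSRF highest in both cultures. In CPM no neighbouring groups overlapped. In length-scaled transcript abundance (TPM) the 3 tiers stayed apart, but 2D dSAP (12.81 to 16.22) overlapped 2D WT (15.2 to 17.23). In 3D, dSAP (36.62 to 45.75 TPM) overlapped both WT (38.2 to 41.85) and control (44.68 to 46.79). The group means in CPM ran, from low to high, 2D control (25.9 ± 0.819, SD, n = 3), 2D dSAP (35.3 ± 3.42), 2D WT (44.6 ± 1.12), 3D dSAP (92.7 ± 4.24), 3D WT (101 ± 2.02), 3D control (109.5 ± 5.29), 2D dSRF (201 ± 5.17) and 3D dSRF (235 ± 14.7).

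Against the 2D control, CPT1A differed by 2.96 ± 0.064 (SE) on the log2 scale in dSRF, 7.76-fold, by 0.79 ± 0.063 (SE) in WT and by 0.45 ± 0.064 (SE) in dSAP. Against the 3D control it differed by 1.10 ± 0.059 (SE) in dSRF, 2.15-fold, and lay slightly below it in WT, at -0.12 ± 0.059 (SE), and in dSAP, at -0.24 ± 0.059 (SE). In the control line the 3D level was 4.23-fold the 2D level, a log2 difference of 2.08 ± 0.063 (SE), and in the WT and dSAP lines the difference was 1.18 ± 0.061 (SE) and 1.39 ± 0.062 (SE). In the dSRF line the same step was 0.23 ± 0.058 (SE), or 0.17 ± 0.049 (SE) without library 3D dSRF 1. CPT1A counts ran from 395 to 5864 per library.

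**Figure D1:**
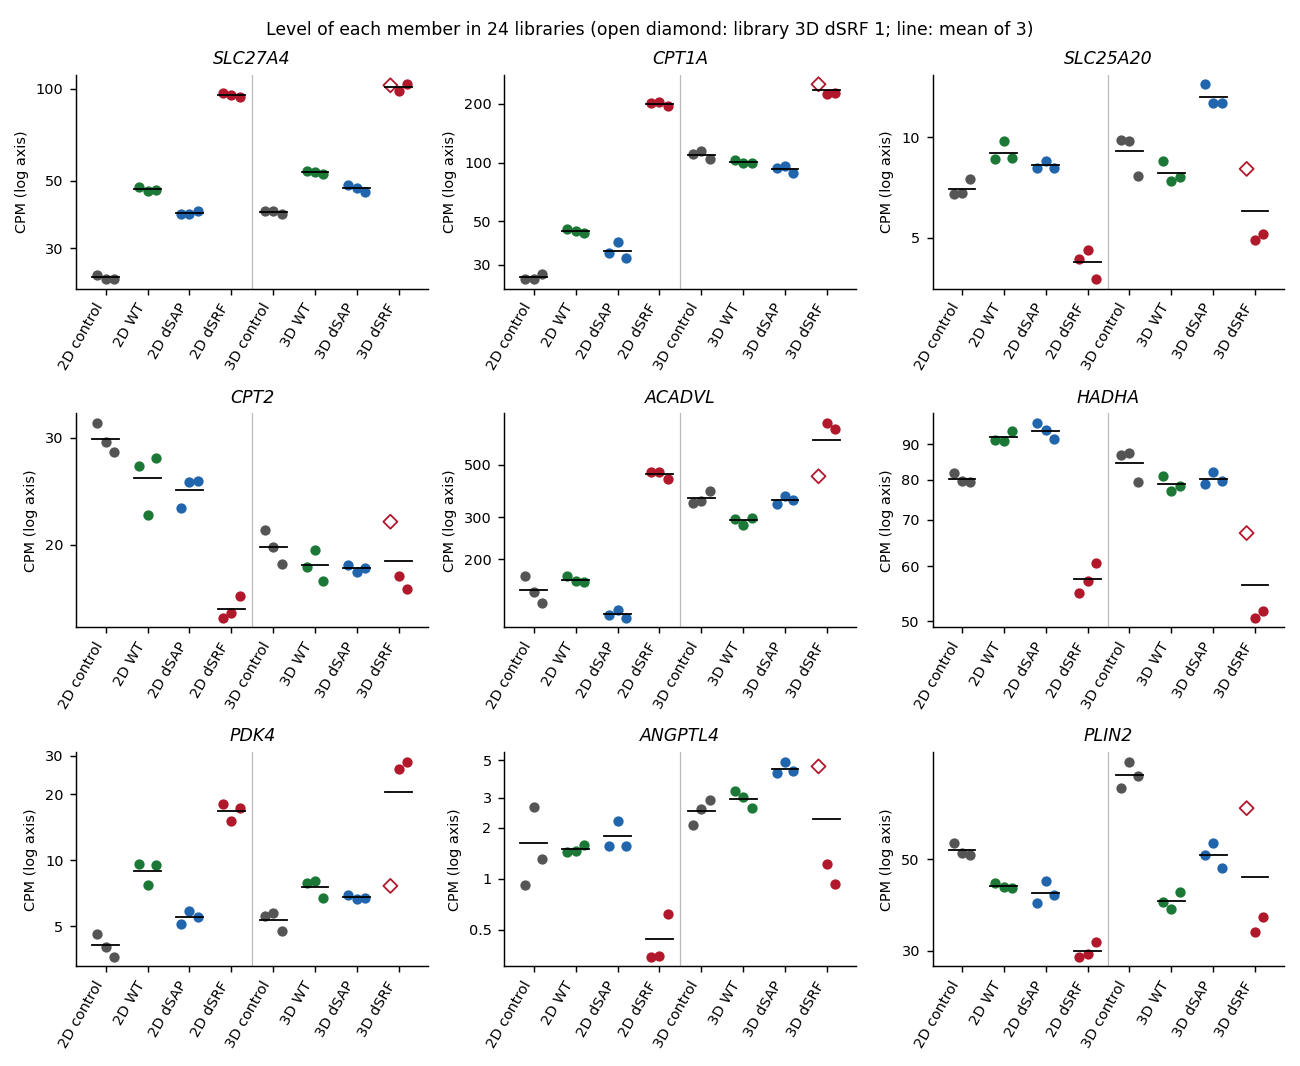
CPM (log axis) of each of the 9 genes in the 24 libraries, by culture and line; dots are libraries, the open diamond is library 3D dSRF 1 and lines are means of 3. CPT1A and SLC27A4 are highest in dSRF in both cultures, and the open diamond sits apart from the other 3D dSRF libraries for PDK4 (7.65 against 26 and 28.1 CPM), ANGPTL4, PLIN2, ACADVL and HADHA.

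The other shuttle genes did not follow CPT1A. CPT2 (ENSG00000157184, chr1:53196429-53214197, plus strand) was highest in 2D control, at 31.7, 29.5 and 28.5 CPM, and lowest in 2D dSRF, at 15.2, 15.5 and 16.4 CPM, with no overlap between them and a log2 fold change of -0.93 ± 0.094 (SE; adjusted p = 4.928e-08). It was -0.28 ± 0.092 (SE; adjusted p = 0.0225) in 2D dSAP, and -0.22 ± 0.092 (SE; adjusted p = 0.06942) in 2D WT, which did not pass the threshold. The 2D dSAP call was lost without 2D control replicate 1 or 2D dSAP replicate 1 (adjusted p up to 0.1282). The 2D WT value passed without library 3D dSRF 1 (adjusted p = 0.01901). Between 2D dSAP and 2D WT the difference was -0.067 ± 0.093 (SE, adjusted p = 0.7283). In 3D the 4 groups overlapped, with control at 21.2, 19.8 and 18.6 CPM and dSRF at 21.8, 17.8 and 16.9 CPM, a log2 difference of -0.073 ± 0.093 (SE; adjusted p = 0.5063). Without library 3D dSRF 1 that difference was -0.20 ± 0.088 (SE; adjusted p = 0.04847). CPT2 fell on matrigel in 3 lines, with a log2 fold change of -0.59 ± 0.093 (SE; adjusted p = 2.921e-05) in control, -0.48 ± 0.093 (SE) in WT and -0.43 ± 0.093 (SE) in dSAP.

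SLC25A20 (ENSG00000178537, chr3:48856931-48898993, minus strand), the acyl-carnitine carrier, was the least counted shuttle gene, with 62 to 294 counts per library. It fell in dSRF, with 4.32, 4.61 and 3.78 CPM against 6.76, 6.81 and 7.50 CPM in the 2D control, a log2 fold change of -0.73 ± 0.16 (SE; adjusted p = 0.0003585). In 3D, dSRF had 8.04, 4.91 and 5.13 CPM and control 9.80, 9.70 and 7.67 CPM, which overlapped through library 3D dSRF 1, the highest of its group. The 3D change was -0.58 ± 0.15 (SE; adjusted p = 0.001814), and -0.85 ± 0.13 (SE; adjusted p = 1.187e-06) without that library. The carrier was highest in 3D dSAP, at 14.4, 12.6 and 12.6 CPM, above every library of the other 7 groups and with a log2 fold change of 0.55 ± 0.14 (SE; adjusted p = 0.006801) against the 3D control. Against 3D WT the 3D dSAP value was 0.76 ± 0.14 (SE; adjusted p = 0.001298).

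Set side by side per length, in length-scaled transcript abundance (TPM), the ratio of CPT1A to CPT2 was 0.420 ± 0.0411 in 2D control (SD, n = 3), 0.855 ± 0.103 in 2D WT, 0.721 ± 0.121 in 2D dSAP and 6.43 ± 0.439 in 2D dSRF. In 3D it was 2.90 ± 0.221, 2.76 ± 0.0599, 2.76 ± 0.176 and 6.45 ± 0.902 in the same order. CPT2 thus exceeded CPT1A in the 2D libraries of 3 lines, and CPT1A exceeded CPT2 in all other libraries. Among the 3 CPT1 genes, CPT1A had 10.2 ± 0.358 TPM in 2D control, CPT1B, the muscle form, 19.8 ± 7.16 TPM and CPT1C, the neuronal form, 9.86 ± 0.574 TPM. In 2D dSRF the values were 84.1 ± 2.44, 22.5 ± 3.86 and 18.0 ± 0.499 TPM, and in 3D control 45.5 ± 1.16, 31.6 ± 5.91 and 13.1 ± 2.52 TPM. By group mean, CPT1A was thus not the leading CPT1 transcript in 2D control and was the leading one in every other group. In 2D WT it had 16.42 TPM and CPT1B 12.63 TPM. In 2D dSAP the means were 14.15 and 11.48 TPM, and the libraries of the 2 genes overlapped there. The family values here and below were picked after they were seen, to place each member beside its relatives.

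ACADVL (ENSG00000072778, chr17:7217125-7225273, plus strand), the first enzyme of the oxidation spiral for very long chains, was the most abundant member per length in all 8 groups (293 ± 40.9 TPM in 2D control). Its 2D libraries had 169, 145 and 131 CPM in control, 170.1, 162 and 159.7 CPM in WT, 116, 122 and 113 CPM in dSAP and 468, 468 and 434 CPM in dSRF. Its 3D libraries had 345, 352 and 388 CPM in control, 297, 278 and 299 CPM in WT, 343, 369 and 356 CPM in dSAP and 447, 749.6 and 707 CPM in dSRF. As with CPT1A, in CPM the dSRF libraries were highest within each culture and the 3D control lay above the 2D control without overlap. In TPM the 3D groups overlapped, as library 3D dSRF 1 had 796.1 TPM, below 3D control 3 (827.9) and 3D dSAP 2 (820.6). The log2 fold change was 1.62 ± 0.13 (SE; adjusted p = 1.789e-09) in 2D dSRF and 0.81 ± 0.13 (SE; adjusted p = 1.234e-05) in 3D dSRF, or 1.01 ± 0.070 (SE; adjusted p = 2.638e-11) without library 3D dSRF 1. ACADVL was lower in 2D dSAP, at -0.34 ± 0.13 (SE; adjusted p = 0.04683), a call that was lost when any of 5 of the 2D control and 2D dSAP libraries was left out, with adjusted p up to 0.2288. Matrigel gave 1.29 ± 0.13 (SE; adjusted p = 1.241e-07) in the control line.

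HADHA (ENSG00000084754, chr2:26190635-26244726, minus strand) changed less and in the other direction. The 2D libraries had 81.7, 79.6 and 79.4 CPM in control and 55.0, 57.2 and 60.7 CPM in dSRF, and the 3D libraries 86.9, 87.5 and 79.4 CPM and 67.0, 50.6 and 51.8 CPM, with dSRF below control without overlap in both. The log2 fold change was -0.48 ± 0.075 (SE; adjusted p = 1.402e-05) in 2D and -0.58 ± 0.074 (SE; adjusted p = 1.011e-06) in 3D. It was slightly higher in 2D WT (0.20 ± 0.074 SE, adjusted p = 0.03802) and 2D dSAP (0.23 ± 0.074 SE, adjusted p = 0.02068); the first call was lost when any of the 6 libraries compared was left out (adjusted p up to 0.1096), the second when any of 4 was (up to 0.06287). HADHB, the beta subunit of the same protein, went the other way in dSRF, with log2 fold changes of 0.60 ± 0.053 in 2D and 0.49 ± 0.052 in 3D. The ratio of HADHA to HADHB in TPM was 0.726 ± 0.00977 in 2D control and 0.702 ± 0.0270 in 3D control, and 0.337 ± 0.0169 in 2D dSRF and 0.344 ± 0.0438 in 3D dSRF. In the WT and dSAP groups it lay between 0.663 and 0.716, above the dSRF values. HADHA and HADHB share 1557 bases on opposite strands in GENCODE 29, and ACADVL shares 2717 bases with DLG4, also on opposite strands. SLC27A4 shares 618 bases on the same strand with the pseudogene TMSB4XP4. The strand setting of the counting is unknown, so reads of the opposite-strand pairs may have been split between them. Reads of the same-strand pair may have been split under any strand setting. CPT2 shares 3993 bases with an antisense gene that is not among the deposited gene identifiers.

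PDK4 (ENSG00000004799, chr7:95583499-95596491, minus strand), the starvation-induced pyruvate dehydrogenase kinase, had 4.62, 4.05 and 3.64 CPM in 2D control, 9.60, 7.76 and 9.55 CPM in 2D WT, 5.14, 5.89 and 5.50 CPM in 2D dSAP and 18.1, 15.2 and 17.3 CPM in 2D dSRF. These groups did not overlap, and the calls were higher for WT (1.13 ± 0.30 SE, adjusted p = 0.005762) and dSRF (2.03 ± 0.30 SE, adjusted p = 7.5e-06). In 3D, control had 5.57, 5.73 and 4.77 CPM, WT 7.85, 8.07 and 6.74 CPM, dSAP 6.95, 6.69 and 6.71 CPM and dSRF 7.65, 26.0 and 28.1 CPM. The library 3D dSRF 1, with the lower MRTFA level, was near the WT and dSAP libraries for PDK4 while the other dSRF libraries were the highest of all 24. The 3D dSRF change was 1.94 ± 0.29 (SE; adjusted p = 9.175e-06), and 2.34 ± 0.12 (SE; adjusted p = 1.211e-15) without it. The spread of that group entered the common fit, and without the library the 3D WT value of 0.50 ± 0.30 (SE; adjusted p = 0.2153) became 0.50 ± 0.11 (SE; adjusted p = 0.0007016).

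In 2D control the kinase genes of this family differed widely in level, and in 2D dSRF their levels lay closer together. In 2D control PDK1 had 49.3 ± 1.73 TPM, PDK2 46.0 ± 3.54, PDK3 23.0 ± 3.05 and PDK4 2.53 ± 0.169 TPM, so PDK4 was the scarcest. In 2D dSRF the values were 14.4 ± 3.18, 19.6 ± 3.79, 37.1 ± 1.70 and 11.3 ± 1.84 TPM. PDK1, a hypoxia-induced kinase, fell in dSRF in both cultures, with log2 fold changes of -2.04 ± 0.083 in 2D and -2.17 ± 0.083 in 3D, and so did PDK2 (-1.15 ± 0.068 and -1.34 ± 0.067). The ratio of PDK4 to PDK1 in TPM was 0.0512 ± 0.00220 in 2D control and 0.789 ± 0.0501 in 2D dSRF.

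**Figure D2:**
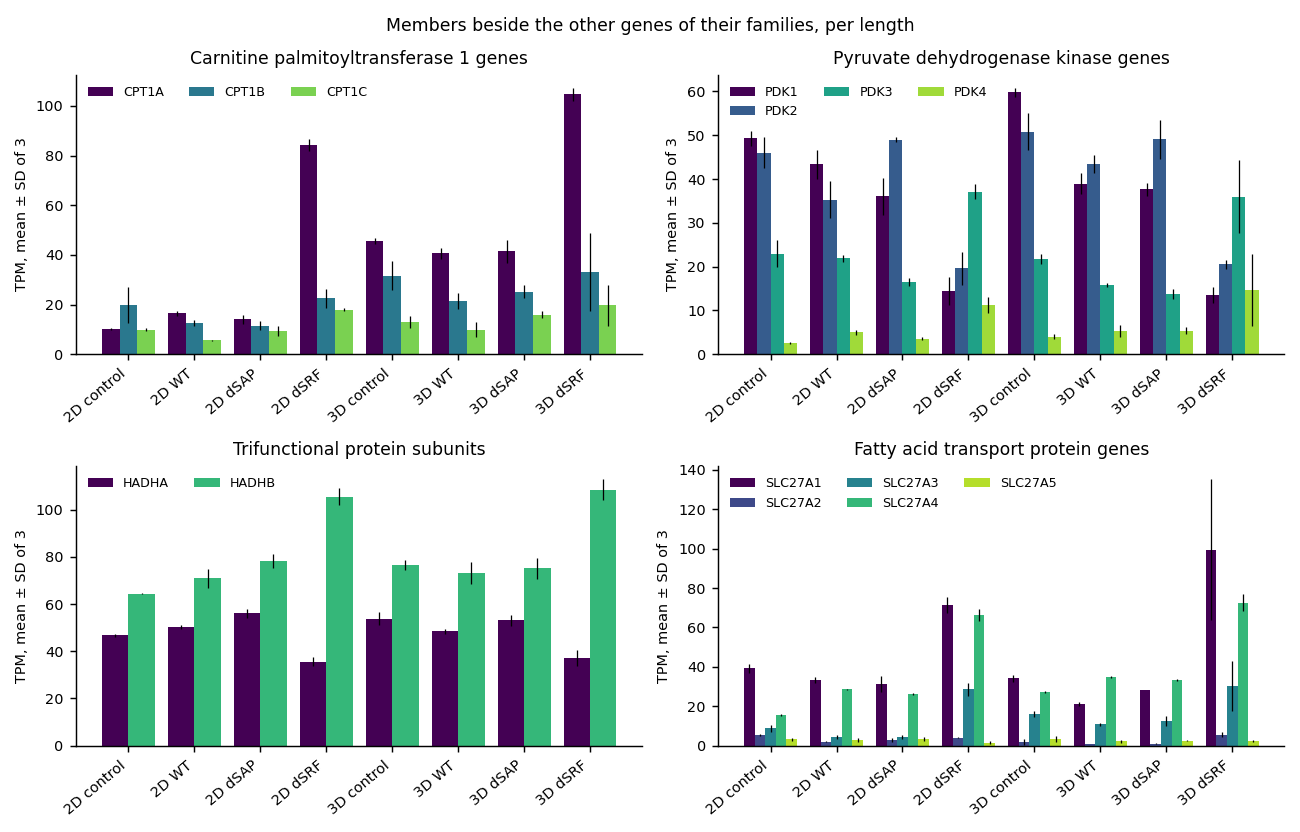
Mean TPM with SD (3 libraries a group) of the CPT1, pyruvate dehydrogenase kinase, trifunctional protein and fatty acid transport protein genes; SLC27A6 is left out as it had no count. CPT1A goes from 10.2 TPM in 2D control to 84.1 TPM in 2D dSRF while PDK1 goes from 49.3 to 14.4 TPM.

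PLIN2 (ENSG00000147872, chr9:19108375-19149290, minus strand), the lipid droplet coat, was highest in 3D control, at 74.6, 86.1 and 79.4 CPM, above every other library of the series. In 3D, WT had 39.4, 38.0 and 41.7 CPM, dSAP 51.2, 54.9 and 47.6 CPM and dSRF 66.5, 33.4 and 36.2 CPM. The log2 fold change against the 3D control was -1.01 ± 0.16 (SE; adjusted p = 5.398e-05) in WT, -0.64 ± 0.16 (SE; adjusted p = 0.004297) in dSAP and -0.81 ± 0.16 (SE; adjusted p = 0.0001675) in dSRF, or -1.20 ± 0.068 (SE; adjusted p = 1.718e-14) in dSRF without library 3D dSRF 1. In 2D, control had 54.8, 51.7 and 51.3 CPM, WT 43.7, 43.0 and 42.7 CPM, dSAP 39.2, 44.2 and 41.1 CPM and dSRF 29.1, 29.6 and 31.5 CPM. The dSRF change was -0.81 ± 0.16 (SE; adjusted p = 0.000259); WT and dSAP lay below control without overlap but did not pass the threshold (-0.29 ± 0.16 SE, adjusted p = 0.1758, and -0.34 ± 0.16 SE, adjusted p = 0.1136), and did so without library 3D dSRF 1 (-0.29 ± 0.061 SE, adjusted p = 0.000296, and -0.34 ± 0.061 SE, adjusted p = 4e-05). PLIN3, the other droplet coat present in quantity, had 144 ± 4.77 TPM in 2D control and 217 ± 10.1 TPM in 2D dSRF, beside 61.4 ± 4.43 and 35.5 ± 1.28 TPM for PLIN2. PLIN1, PLIN4 and PLIN5 had group means of 0.6807 TPM or less.

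ANGPTL4 (ENSG00000167772, chr19:8363289-8374373, plus strand) was scarce, with 5 to 107 counts per library, which limits its precision. The 2D control libraries had 0.923, 2.63 and 1.31 CPM, WT 1.44, 1.47 and 1.59 CPM, dSAP 1.57, 2.20 and 1.56 CPM and dSRF 0.348, 0.350 and 0.621 CPM, with dSRF below all others and a log2 fold change of -1.81 ± 0.52 (SE; adjusted p = 0.004549). In 3D, control had 2.09, 2.57 and 2.91 CPM, WT 3.27, 3.03 and 2.61 CPM, dSAP 4.21, 4.88 and 4.30 CPM and dSRF 4.60, 1.23 and 0.937 CPM. The 3D dSRF value depended on 1 library: it was -0.15 ± 0.42 (SE; adjusted p = 0.7752) with all 3 and -1.22 ± 0.32 (SE; adjusted p = 0.001448) without 3D dSRF 1. The step from 2D to 3D in dSRF was called either way, at 2.32 ± 0.51 (SE; adjusted p = 0.003403) with it and 1.24 ± 0.38 (SE; adjusted p = 0.008164) without it. In dSAP the step to 3D was 1.33 ± 0.43 (SE; adjusted p = 0.0154), a call lost without 2D dSAP replicate 1 or 3 (adjusted p up to 0.06109).

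PLIN2, ANGPTL4 and PDK1 are also known to respond to hypoxia, and a list of 10 hypoxia response genes was read beside them. In dSRF 8 of the 10 were lower and 2 higher against control. Of all genes, 31.5% were lower and 34.5% higher in 2D, and 31.3% and 35.1% in 3D. The median log2 fold change was -1.86 in 2D, against 0.018 over all genes, and -1.10 in 3D, against 0.023. The oxygen sensor EGLN3 was at -2.93 ± 0.17 in 2D dSRF and the acid-handling enzyme CA9 at -6.87 ± 0.44 in 3D dSRF, while ADM, which codes for a vasodilator peptide, was higher in 2D dSRF at 0.95 ± 0.067. Of the 10, 3 were higher and 1 lower in 2D WT, 2 and 3 in 3D WT, 1 and 4 in 2D dSAP (median -0.33) and 1 and 6 in 3D dSAP (median -0.50). The shares of all genes were 20.1% higher and 19.2% lower in 2D WT, and 18.0% and 17.0% in 3D WT. In dSAP they were 17.5% and 15.4% in 2D, and 16.5% and 13.1% in 3D. Of 10 starvation and FOXO response genes, 3 were higher and 3 lower in 2D dSRF, and 4 and 2 in 3D dSRF, with members far from 0 in both directions. These counts stand beside the dSRF shares of all genes given above, 34.5% and 31.5% in 2D and 35.1% and 31.3% in 3D. TXNIP, a glucose-responsive gene, was at -3.22 ± 0.14 and -3.38 ± 0.14 on the log2 scale, KLF9, a transcription factor gene, at 1.60 ± 0.20 and 4.28 ± 0.24, and the sestrin gene SESN3 at 8.13 ± 0.66 and 8.56 ± 0.73. SESN3 had 18 counts in all in the 2D control libraries and 8 in the 3D control libraries, against 4544 and 3452 in dSRF. The part of these responses in the changes of the 9 genes was not tested.

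Counted over the 9 genes, 2D dSRF had 4 higher (SLC27A4, CPT1A, ACADVL and PDK4) and 5 lower, where 34.5% of the 14986 genes tested were higher and 31.5% lower at an adjusted p under 0.05 (edgeR's quasi-likelihood test, Benjamini-Hochberg adjustment over all genes). In 3D dSRF the same 4 were higher, and SLC25A20, HADHA and PLIN2 lower, beside 35.1% and 31.3% of all genes. Without library 3D dSRF 1, 4 were higher and 5 lower in 3D dSRF, beside 74.1% of all genes called in either direction. In 2D WT CPT1A, SLC27A4, HADHA and PDK4 were higher and none was lower (20.1% and 19.2% of all genes). In 2D dSAP CPT1A, SLC27A4 and HADHA were higher and CPT2 and ACADVL lower (17.5% and 15.4%). In 3D WT SLC27A4 was higher and PLIN2 lower (18.0% and 17.0%), and in 3D dSAP SLC25A20 and SLC27A4 were higher and CPT1A and PLIN2 lower (16.5% and 13.1%). Without library 3D dSRF 1 the fit had a smaller spread and called 7 of 9 in 2D WT and in 2D dSAP, 5 in 3D WT and 6 in 3D dSAP, beside 52.8%, 47.9%, 48.9% and 44.8% of all genes. CPT1A is counted by the same threshold as a description. Nothing is read from these counts, since the members were chosen with results known.

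**Figure D3:**
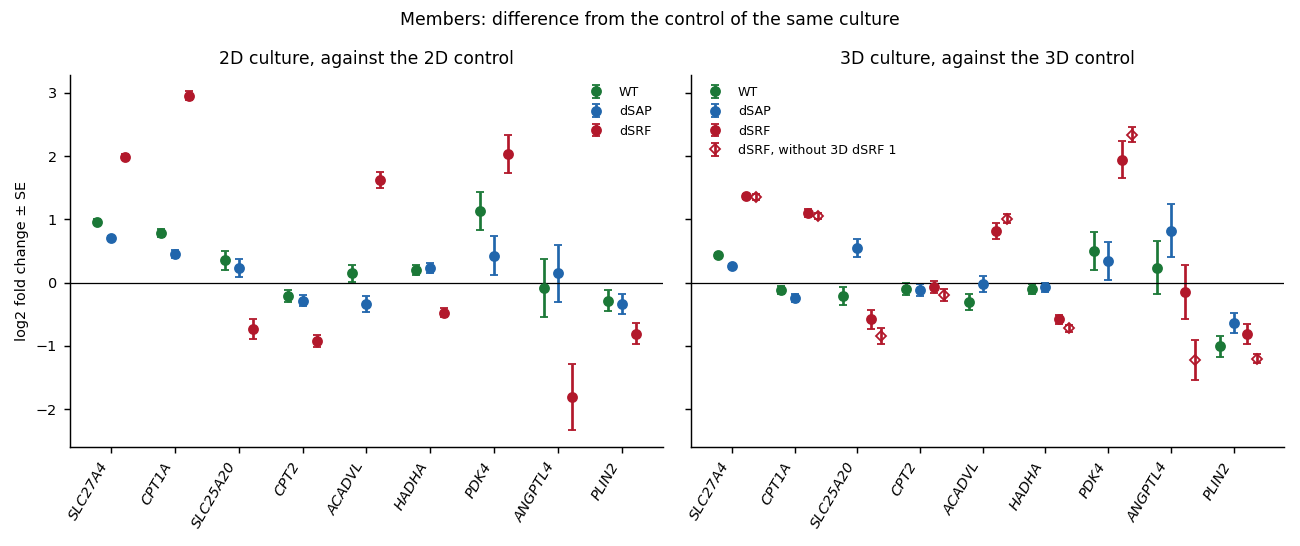
Log2 fold change with SE of each of the 9 genes against the control line of the same culture, for WT, dSAP and dSRF, with open diamonds for 3D dSRF without library 3D dSRF 1. SLC27A4 is above 0 in all 6 comparisons, and the open diamond for ANGPTL4 lies at -1.22 against -0.15 with all libraries.

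Between the mutants and WT, all 9 genes differed in 2D dSRF against 2D WT (4 higher, 5 lower; 64.0% of all genes differed in either direction), and 6 in 3D (4 higher, 2 lower; 65.9%). Without library 3D dSRF 1, 4 were higher and 4 lower in 3D, where 74.1% of all genes differed. ANGPTL4 then went from -0.38 ± 0.42 (SE, adjusted p = 0.4373) to -1.46 ± 0.32 (SE, adjusted p = 0.0002317). The lower call of SLC25A20 in 3D, at -0.37 ± 0.15 (SE; adjusted p = 0.03389), was lost when any of 4 libraries compared was left out (adjusted p up to 0.178). CPT1A lay 2.17 ± 0.062 (SE) above WT on the log2 scale in 2D and 1.22 ± 0.059 (SE) in 3D, ACADVL 1.48 ± 0.13 (SE) and 1.12 ± 0.13 (SE). PLIN2 in 3D dSRF was 0.20 ± 0.16 (SE; adjusted p = 0.2948) against 3D WT with all libraries and turned to -0.19 ± 0.069 (SE; adjusted p = 0.01491) without 3D dSRF 1. In 2D dSAP against WT 3 genes were lower (12.8% of all genes differed): CPT1A at -0.34 ± 0.062 (SE), SLC27A4 at -0.26 ± 0.036 (SE; adjusted p = 7.698e-05) and ACADVL at -0.48 ± 0.13 (SE; adjusted p = 0.01553), the last lost without 2D WT replicate 1 or 2D dSAP replicate 1 or 3 (adjusted p up to 0.05741). In 3D 2 genes differed (12.1%): SLC25A20 was higher in dSAP, as given above, and SLC27A4 lower, at -0.18 ± 0.036 (SE; adjusted p = 0.002185). The MRTFA level itself differed between the lines (WT 4444 to 4878 CPM and dSAP 8765 to 10720 CPM over both cultures), which cannot be told apart from the mutation here.

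On matrigel the control line had 5 of the 9 genes higher (CPT1A, SLC25A20, SLC27A4, ACADVL and PLIN2) and CPT2 lower, beside 23.0% and 24.4% of all genes. The SLC25A20 call, at 0.37 ± 0.15 (SE; adjusted p = 0.04846), was lost when any of 5 of the 6 libraries compared was left out (adjusted p up to 0.1553). In WT 3 were higher and 2 lower (24.4% and 25.7%), and in dSAP 5 and 2 (24.2% and 23.5%). CPT1A, SLC27A4 and ACADVL were higher and CPT2 lower on matrigel in each of these 3 lines. PLIN2 was higher in control, with 0.60 ± 0.16 (SE; adjusted p = 0.004038), and was -0.12 ± 0.16 (SE; adjusted p = 0.5681) in WT. In dSRF 5 of the 9 were higher on matrigel (CPT1A, SLC25A20, ACADVL, ANGPTL4 and PLIN2) and none lower, beside 7.19% and 9.84% of all genes. When the fit used these 6 libraries alone, 0 of all genes were called, and so no member was. Without library 3D dSRF 1, CPT1A, ACADVL, PDK4, ANGPTL4 and PLIN2 were higher and HADHA lower (-0.18 ± 0.050 SE, adjusted p = 0.005337). In that fit 49.1% of all genes were called in either direction. SLC25A20 then lost its call, going from 0.52 ± 0.16 (SE) to 0.25 ± 0.13 (SE; adjusted p = 0.1262), and PLIN2 went from 0.60 ± 0.16 (SE) to 0.21 ± 0.072 (SE). ACADVL and PDK4 stood at 0.67 ± 0.070 (SE) and 0.68 ± 0.11 (SE).

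The difference from control was not the same in the 2 cultures for some genes, by the test of the difference between the cultures (3D minus 2D). Of the 8 genes other than CPT1A, SLC27A4 passed for WT and for dSAP (9.18% and 2.34% of all genes passed). For dSRF, CPT2, SLC27A4 and ACADVL passed (29.2%). Without library 3D dSRF 1, SLC25A20, ACADVL, HADHA, PDK4 and PLIN2 passed too for WT, and ACADVL, HADHA and PLIN2 for dSAP. For dSRF, HADHA and PLIN2 were added, with PLIN2 going from -0.007 ± 0.23 (SE) to -0.40 ± 0.093 (SE, adjusted p = 0.001034). In that fit 24.3%, 11.6% and 44.6% of all genes passed for WT, dSAP and dSRF. CPT1A is described without a test. SLC27A4 in each line and ACADVL in dSRF were less above control in 3D than in 2D, and their 3D control level was higher than their 2D control level. CPT1A was less above control in 3D than in 2D in dSRF, and in WT and dSAP it lay above control in 2D and below it in 3D. CPT2 was lower than control in 2D dSRF and near it in 3D dSRF. For PDK4 the difference between cultures in dSRF was -0.094 ± 0.41 (SE; adjusted p = 0.902), which did not pass and whose SE leaves room for a change of either sign.

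**Figure D4:**
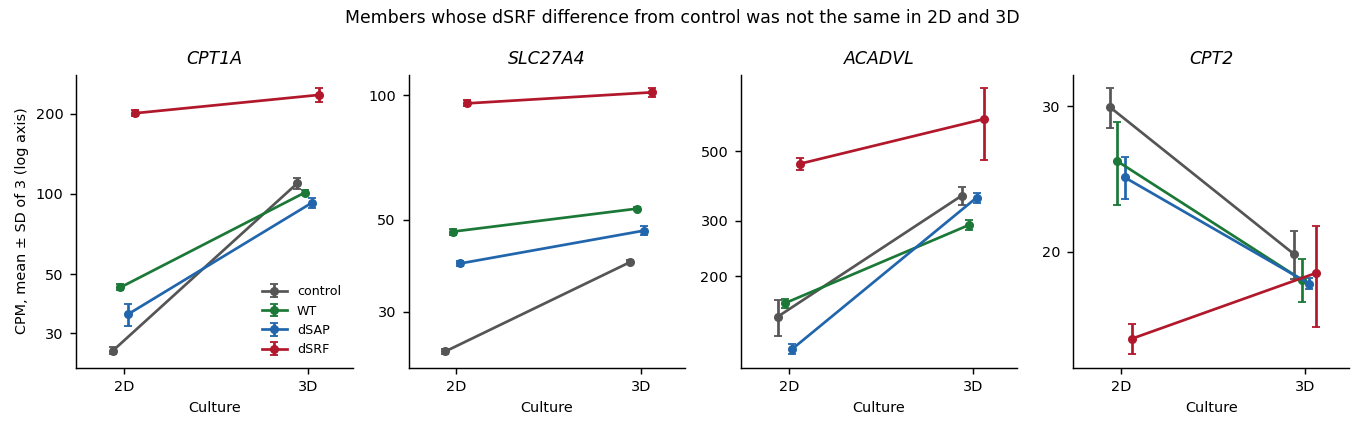
Mean CPM with SD (log axis, 3 libraries) in 2D and 3D for the 4 genes whose dSRF difference from control was not the same in the cultures. The CPT1A control line runs from 25.9 to 109.5 CPM and the dSRF line from 201 to 235 CPM.

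The wider pathway was read from 6 lists of 124 genes besides the 9, of which 122 matched an identifier and 107 were tested. In 2D dSRF 72 of the 107 passed the test (35 higher, 37 lower) and in 3D dSRF 76 (45 higher, 31 lower). That is 67.3% and 71.0% of them, near the 66.0% and 66.4% of all genes that passed. The other counts against control were 51 in 2D WT, 51 in 2D dSAP, 53 in 3D WT and 44 in 3D dSAP. These are 47.7%, 47.7%, 49.5% and 41.1% of the 107, above the 39.3%, 32.9%, 35.0% and 29.6% of all genes. The lists were chosen with earlier results of these data known, so nothing is read from these shares. The median log2 fold change over the 107 was -0.017 in 2D dSRF and 0.14 in 3D dSRF, against 0.018 and 0.023 over all genes.

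The counts of each list stand beside 34.5% of all genes higher and 31.5% lower in 2D dSRF, and 35.1% and 31.3% in 3D dSRF. Of 15 further genes of mitochondrial beta-oxidation, 3 were higher and 9 lower in 2D dSRF, and 3 and 7 in 3D dSRF. Without library 3D dSRF 1 the 3D counts were 3 and 9, beside 74.1% of all genes called in either direction. ECI1, an isomerase for unsaturated chains, was higher in 2D at 0.95 ± 0.075 and ACAD11, an acyl-CoA dehydrogenase, at 1.25 ± 0.20, whereas ACADSB, which handles short branched chains, was at -1.26 ± 0.21. The 9 lower genes thus had the direction of HADHA and CPT2 in 2D dSRF, and the 3 higher ones that of CPT1A and ACADVL. Of 18 peroxisomal genes 7 were higher and 4 lower in 2D dSRF, and 8 and 4 in 3D dSRF. Among those higher in 2D were catalase CAT (1.11 ± 0.10) and the phytanic acid enzyme PHYH (1.49 ± 0.083).

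Of 17 uptake, activation and binding genes 6 were higher and 5 lower in 2D dSRF, and 10 and 4 in 3D dSRF. The lipoprotein receptor VLDLR was higher in dSRF in both cultures, at 1.90 ± 0.077 in 2D and 2.30 ± 0.078 in 3D, and so was the acyl-CoA synthetase ACSL3 (0.79 ± 0.086 and 1.40 ± 0.087). Among the transport proteins, SLC27A1 had 39.2 ± 2.23 TPM in 2D control and 71.5 ± 3.96 TPM in 2D dSRF, and SLC27A4 had 15.6 ± 0.363 and 66.2 ± 3.10 TPM. SLC27A6 had no count in any library, nor had the omega-hydroxylase CYP4A11 and the droplet protein CIDEA.

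Of 17 tested PPAR receptors, partners and response genes 6 were higher and 8 lower in 2D dSRF, and 7 and 8 in 3D dSRF. The PPAR alpha gene PPARA was lower in both, at -0.75 ± 0.052 and -0.72 ± 0.052. The coactivators PPARGC1A and PPARGC1B were higher in 2D dSRF, at 1.86 ± 0.14 and 2.23 ± 0.17, and the mitochondrial carrier UCP2 in 2D and 3D dSRF, at 1.22 ± 0.10 and 2.37 ± 0.11. PPARGC1A was also higher in 2D WT, at 1.94 ± 0.14, and in 2D dSAP, at 1.01 ± 0.15. Of the PPAR response genes among the members, PDK4 was higher in dSRF and PLIN2 lower in both cultures, and ANGPTL4 was lower in 2D dSRF and, without library 3D dSRF 1, in 3D dSRF.

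Of 22 carnitine, malonyl-CoA and pyruvate dehydrogenase control genes 8 were higher and 6 lower in 2D dSRF, and 8 and 5 in 3D dSRF; besides the kinases, the AMP kinase subunit PRKAG2 was higher (0.77 ± 0.052 and 1.37 ± 0.053) and PDHB, a subunit of pyruvate dehydrogenase, lower in 2D (-1.01 ± 0.081). Of 18 droplet and lipolysis genes 5 were higher and 5 lower in 2D dSRF, and 9 and 3 in 3D dSRF. The triglyceride synthesis enzyme DGAT2 was lower in 2D (-1.82 ± 0.16) and the lipase PNPLA2 higher in 3D (1.64 ± 0.11).

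**Figure D5:**
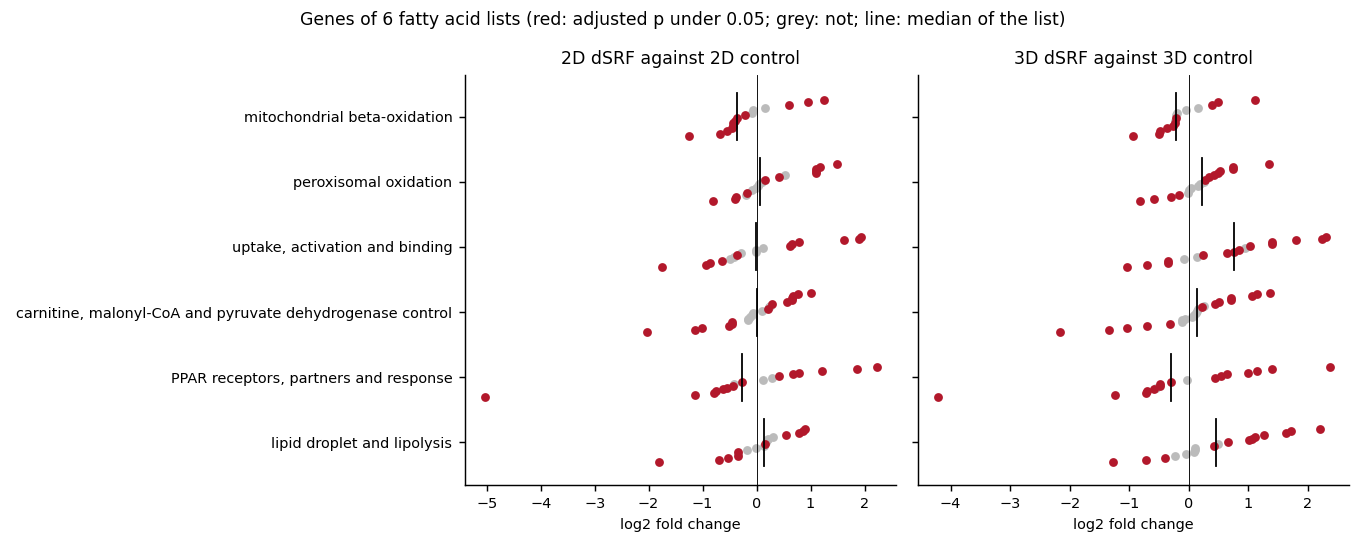
Log2 fold change of the 107 other tested genes of 6 fatty acid lists in dSRF against the control of the same culture; red points passed an adjusted p under 0.05, grey points did not, and black lines are list medians. Red points lie on both sides of 0 in every list, and the leftmost point in 2D is CREB3L3, with 12 counts in all in the 2D control libraries and 0 in 2D dSRF, so that its place depends on the fit's prior count.

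The WT and dSAP lines had calls in other pathway genes. The peroxisomal oxidase ACOX3 was higher in 2D WT at 2.02 ± 0.10, in 3D WT at 2.12 ± 0.10 and in 2D dSAP at 1.18 ± 0.10, and lower in 3D dSRF at -0.82 ± 0.10. DECR1, which prepares unsaturated chains for oxidation, was at 1.33 ± 0.087 in 2D WT, the monoglyceride lipase MGLL at 1.25 ± 0.053 and the triglyceride synthesis enzyme DGAT1 at 1.35 ± 0.070. On matrigel the control line had the acetyl-CoA carboxylase gene ACACB, whose product makes the malonyl-CoA that inhibits CPT1A, higher at 1.25 ± 0.17, PPARGC1B higher at 1.85 ± 0.17 and the lipase PNPLA2 lower at -1.43 ± 0.11.

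The counts of pathway genes called in the remaining comparisons, of 107, were 73 for 2D dSRF and 76 for 3D dSRF against WT, and 19 and 16 for dSAP against WT. They were 58 in control, 64 in WT, 63 in dSAP and 19 in dSRF for 3D against 2D, and 10, 4 and 39 for the difference between the cultures in WT, dSAP and dSRF.

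By Pearson correlation of mean log2 CPM over the 8 groups, ACADVL was the member most like CPT1A (r = 0.964), followed by SLC27A4 (0.885) and PDK4 (0.799). CPT2 (-0.914) and HADHA (-0.805) ran opposite, and SLC25A20 (-0.40), PLIN2 (-0.21) and ANGPTL4 (-0.15) were weakly related. Among 10708 genes of at least 10 CPM in 1 group, the 5 most like CPT1A were KCNC4 (0.992), NEK1 (0.989), IFNGR1 (0.989), PIGQ (0.988) and ZCCHC17 (0.988), and the 5 most opposite were BICC1 (-0.993), EFEMP1 (-0.990), SARNP (-0.988), ASAP1 (-0.986) and TFDP2 (-0.986). KCNC4 went from 1.54 CPM in 2D control to 13.0 CPM in 2D dSRF and 5.13 CPM in 3D control, and EFEMP1 from 92.7 to 9.80 and 25.8 CPM. These correlations are over 8 group means that share libraries with every comparison above, and are given as a description.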

How the data were processed

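RNA of 24 libraries was sequenced, and the deposited tables hold 1 estimated count and 1 TPM value per gene and library, made by the authors with Salmon on hg38, per the submitters' processing notes. The sources used here do not state the annotation or the use of strand, and the labels name both a total RNA kit and polyA RNA. Groups follow the sample titles, since the genotype field disagreed with them in 16 libraries. Estimated counts were rounded, filtered (filterByExpr), scaled by TMM (factors 0.890 to 1.085) and tested in 1 model of 8 groups by edgeR 4.0.16 in R 4.3.3 (robust quasi-likelihood, 16 residual df), over 17 comparisons, with Benjamini-Hochberg adjustment over 14986 genes and a threshold of 0.05. The code was tested on simulated data. Positions come from GENCODE 29 (GRCh38). The members and lists were chosen with earlier results of these data known. Other genes named are, per list and comparison, up to 4 called genes with the lowest p, list genes without a count, and the 5 genes most and least like CPT1A. Alternatives used DESeq2 1.42.0, limma 3.58.1 on log2(TPM + 1) and log2(TPM + 0.1), RLE scaling, no filter, a replicate block, only the libraries compared, and each library left out. Some genes that this rule would name are not reported here.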

Additional observations from a re-analysis of the deposited data

Results flagged for a closer look

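The difference between an MRTF-A line and its control was not the same in 2D and 3D for some genes, by the interaction term of the model over all genes (edgeR's quasi-likelihood test, 3D minus 2D on the log2 scale). CPT1A had -0.90 ± 0.086 (SE) for WT, -0.69 ± 0.087 for dSAP and -1.85 ± 0.085 for dSRF, and is given without a p-value because it led the choice of genes. SLC27A4 had -0.53 (adjusted p = 1.751e-06) for WT, -0.45 (adjusted p = 6.602e-05) for dSAP and -0.63 (adjusted p = 3.382e-08) for dSRF. For dSRF, CPT2 had 0.86 ± 0.13 (SE; adjusted p = 6.429e-05) and ACADVL -0.81 ± 0.18 (SE; adjusted p = 0.001864). The interactions share the control libraries, so they are not separate pieces of evidence. All 24 libraries entered this fit, and more members passed without library 3D dSRF 1, as given above.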

How the results depend on the processing

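Of 153 log2 fold changes of the 9 genes, 151 kept their side of the threshold with RLE scaling, 150 with DESeq2, 148 with no filter, 133 and 135 with limma on log2(TPM + 1) and log2(TPM + 0.1), and 123 with only the libraries compared. The cause of the changes was not tested. Library 3D dSRF 1 widened the common spread. Values that passed in neither fit changed sign under several of these settings and with single libraries left out, such as ANGPTL4 in 3D dSRF against control (up to 0.22 without 3D dSRF replicate 3) and the PDK4 difference between cultures in dSRF (0.30 without 3D dSRF replicate 1). Leaving out 1 library turned 1 value that then passed the threshold: PLIN2 in 3D dSRF against 3D WT ran from -0.19 without 3D dSRF replicate 1 to 0.38 without 3D dSRF replicate 2.

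Members called were 3 in 2D dSAP against control with no filter, 4 for the WT difference between cultures with DESeq2, and 0 for 2D dSAP against WT with limma at both pseudocounts. With only the libraries compared they were 4 in 3D WT against control, 6 in 3D dSAP against WT, 0 in 3D against 2D dSRF, and 7 and 4 for the WT and dSAP differences between cultures. Pathway genes called in 3D against 2D dSRF were 10 and 9 with limma at the pseudocounts 1 and 0.1. With only the libraries compared they were 40 and 45 for dSAP against WT in 2D and 3D, 47 for dSRF against WT in 3D, 0 in 3D against 2D dSRF, and 33, 13 and 24 for the WT, dSAP and dSRF differences between cultures. All genes called were 599 for the dSAP difference between cultures with DESeq2. With limma they were 1693 and 1609 in 3D against 2D dSRF, 909 and 870 for the WT difference between cultures, and 200 and 164 for the dSAP one. With only the libraries compared they were 4288 and 4607 for dSAP against WT in 2D and 3D, 0 in 3D against 2D dSRF, and 3463, 1400 and 2642 for the WT, dSAP and dSRF differences between cultures.

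For each comparison the libraries it compares and 3D dSRF replicate 1 were left out in turn, and leaving out the other libraries was not run. The highest count in each range below came without 3D dSRF replicate 1, where the counts over all genes rose too. Against control, 47.9% of all genes were then called in 2D dSAP, 52.8% in 2D WT and 48.9% in 3D WT. With all libraries these shares were 32.9%, 39.3% and 35.0%. Members called ran from 2 to 7 for 2D dSAP against 2D control, 3 to 7 for 2D WT against 2D control, 2 to 4 for 3D dSAP against 3D WT, 2 to 6 for 3D dSRF against 2D dSRF, 2 to 5 for 3D WT against 3D control, 2 to 5 for dSAP against control (3D minus 2D) and 2 to 7 for WT against control (3D minus 2D). Pathway genes called ran from 14 to 37 for 2D dSAP against 2D WT, 11 to 45 for 3D dSAP against 3D WT, 10 to 57 for 3D dSRF against 2D dSRF, 4 to 12 for dSAP against control (3D minus 2D), 32 to 60 for dSRF against control (3D minus 2D) and 7 to 35 for WT against control (3D minus 2D). All genes called ran from 1171 to 4220 for 2D dSAP against 2D WT, 3517 to 6715 for 3D dSAP against 3D control, 1186 to 4149 for 3D dSAP against 3D WT, 1599 to 7351 for 3D dSRF against 2D dSRF, 206 to 1738 for dSAP against control (3D minus 2D), 3679 to 6680 for dSRF against control (3D minus 2D) and 973 to 3636 for WT against control (3D minus 2D).

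The replicate numbers share only a number. Each library was read as its deviation from its group mean, in log2 CPM over all tested genes. Between same-numbered libraries of different groups these deviations had correlations of -0.131 to 0.122 over 84 pairs. By mean correlation of the deviations, 1 of 24 libraries correlated best with its own number. With the replicate block 4 members were called in 2D dSAP against control, where ACADVL lost its call, and no count moved by over 1.5 times.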
